A study of Mus musculus with 19 samples.

Results

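The Siglecs are a family of cell surface lectins, and the 5 genes described here are Siglec1, Cd22, Cd33, Siglece and Siglecg. They were taken from a list of sialic-acid-binding lectins, each with 1 probeset that carried that gene symbol alone, and they are 5 of the 19938 genes measured on 19 arrays of Kupffer cells (KCs), the resident macrophages (mφs) of the liver. The mice carried human diphtheria toxin (DT) receptor under control of Clec4f, a KC lectin gene (KC-DTR mice), so that DT emptied the KC niche, which was then refilled by monocyte-derived KCs (mo-KCs). The 3 arrays of mo-KCs 15 days after DT and the 5 arrays of mo-KCs 30 days after DT, all from KC-DTR mice given 50 ng DT, were set against 11 arrays of embryonically derived KCs (em-KCs). The em-KC arrays comprised 3 of untreated KC-DTR mice, 1 of an untreated wild-type (WT) littermate, 2 of littermates 15 days after DT, 2 of littermates 30 days after DT and 3 of WT mice. All mice were between 6 and 12 weeks old, and per the titles each array of a group is a separate biological sample. The knock-in cassette sits in Clec4f itself, and Clec4F was also a sorting marker.

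Siglecs bind sialic acids, the acidic sugars that cap many glycans of vertebrate cells. Most of them carry tyrosine motifs in the cytoplasmic tail that recruit the phosphatases Shp1 and Shp2 and dampen activating receptors, while Siglec1 lacks such motifs and acts in adhesion and capture. Siglec1, also called sialoadhesin or CD169, is a hallmark of tissue mφs, including those of the liver. Cd22 and Siglecg are best known as inhibitory receptors of B cells, Siglece is an inhibitory receptor of neutrophils, monocytes and mφs, and Cd33 belongs to the myeloid branch of the family.

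Markers of KCs and of other cells were read on the same arrays. Over all arrays, the mean of each of 13 KC markers on a fixed list lay above the 95th percentile of olfactory receptor genes. KCs are not known to use these receptors, which gave a median of 3.84 and a 95th percentile of 5.47 on the log2 scale. The 13 KC markers averaged between 10.79 and 10.94 on day 15 mo-KC arrays and between 10.79 and 11.14 on day 30 mo-KC arrays. On em-KC arrays the 13 KC markers averaged between 11.50 and 11.67. Some of these markers differed with origin: 4 of 13 at day 15 and 6 of 13 at day 30 passed the test below em-KCs, among them Timd4, a phosphatidylserine receptor, at 8.16 ± 0.25 in day 15 mo-KCs, 9.62 ± 0.18 in day 30 mo-KCs and 11.90 ± 0.10 in em-KCs (SD, n = 3, 5 and 11). Of marker lists of other cells, 1 of 6 eosinophil genes (Ccr3) was called higher at both days, 1 of 8 monocyte genes (Cx3cr1) was called higher at both days and a further one (Ccr2) at day 15, 1 of 9 T and NK cell genes (Cd4) was called lower at both days, 1 of 14 hepatocyte genes (Trf) was called lower at day 30, and none of 11 neutrophil, 5 plasmacytoid dendritic cell or 14 sinusoidal endothelial genes was called. A gene that was not called can still be abundant. All 14 sinusoidal endothelial genes and all but 1 of the 14 hepatocyte genes had means above the same 95th percentile. Among them, Cdh5 averaged 11.85 and Alb 10.74 over all arrays, so these values do not show that the sorted cells were pure. The arrays also fell into 2 sets by 3 Y-linked genes, whose mean was between 3.97 and 4.18 on 6 arrays (day 30 mo-KC replicates 3 to 5 and the 3 WT em-KC arrays) and between 7.33 and 7.83 on the other 13. The low Y-linked means lay near the olfactory receptor median of 3.84, and the paper states that mice of both sexes were used. The labels do not give the sex of each sample or any batch, and what else differs between the sets is not known. Within em-KCs the sets coincide with WT mice against the KC-DTR colony, so the set and the source of the mice cannot be told apart there.

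Of the 5 genes, 4 lie on mouse chromosome 7, and Siglec1 lies on chromosome 2 between Adam33 and Hspa12b. Cd22 neighbours Mag, which encodes the myelin Siglec, and Siglecg neighbours Siglecf. Promoter windows of 300 bases around the annotated start were taken from RefSeq (GRCm38.p6) for Cd22, Cd33, Siglece and Siglecg. The window of Cd22, the gene called between mo-KCs and em-KCs over all arrays, and that of Siglece, the gene called between sources of em-KCs, are shown in full. In the Cd22 window (chr7:30878979-30879278, minus strand) capitals mark the ETS core GGAA on either strand, and in the Siglece window (chr7:43660112-43660411, minus strand) they mark the longer PU-box GAGGAA, which contains that core and is here read on the reverse strand as ttcctc.
Cd22: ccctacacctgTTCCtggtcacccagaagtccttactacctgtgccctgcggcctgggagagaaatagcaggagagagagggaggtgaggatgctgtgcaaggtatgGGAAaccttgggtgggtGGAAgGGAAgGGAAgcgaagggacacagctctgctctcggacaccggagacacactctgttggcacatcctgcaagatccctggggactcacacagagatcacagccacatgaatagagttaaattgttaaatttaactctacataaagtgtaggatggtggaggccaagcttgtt
Siglece: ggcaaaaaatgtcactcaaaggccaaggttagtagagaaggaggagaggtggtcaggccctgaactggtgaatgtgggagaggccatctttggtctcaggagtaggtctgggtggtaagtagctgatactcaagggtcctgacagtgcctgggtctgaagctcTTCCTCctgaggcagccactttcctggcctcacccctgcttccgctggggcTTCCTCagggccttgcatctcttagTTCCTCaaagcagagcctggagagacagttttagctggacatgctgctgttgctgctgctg
The core GGAA occurred 5 times in the Cd22 window. Of 27025 promoter windows of the same length, 95.9% held it at least once and 66.5% held it 3 or more times. The PU-box, the form bound by the myeloid factor PU.1, was at 0 places in the Cd22 window, 1 in that of Cd33, 3 in that of Siglece and 2 in that of Siglecg. Of all windows, 28.3% held at least 1 PU-box and 0.688% held 3 or more. An AP-1 motif (TGANTCA, 7.93% of windows) and the octamer of B cell promoters (ATGCAAAT, 1.75%), each searched on both strands, had no match in the 4 windows. These are matches of letters and not sites of binding.

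Between the promoter windows of Cd33 and Siglecf, a run of 58 bases aligned without gaps at 43 identical positions, and the part of it with at most 1 difference spanned 25 bases. Its identical positions outnumbered the differing ones by 28, against 9 to 12 in the best runs of the other 20 pairs of 7 Siglec windows, and pairs of unrelated genes were not compared. The part is shown because both genes are measured here, with capitals at identical bases (Cd33 chr7:43533252-43533276, minus strand; Siglecf chr7:43351365-43351389, plus strand). Both lie in the same region of chromosome 7, with the window of Siglecg between them.
Cd33: GTGGAAAGTTCCtTCTCTGTGGTCA
Siglecf: GTGGAAAGTTCCcTCTCTGTGGTCA
Probe sequences were not used here, so whether any probe reads more than 1 Siglec transcript was not tested.

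Over all arrays, Cd22 was the only gene of the 5 that was called between mo-KCs and em-KCs. Its level was lower in mo-KCs than in em-KCs at both days, by 1.73-fold at day 15 and by 1.47-fold at day 30. The other 4 genes, including the mφ marker Siglec1, did not pass this test at either day, which does not show that they were unchanged. Each level below is a log2 value, 1 unit of which is a doubling.

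Cd22 stood at 6.93, 7.18 and 7.22 on the day 15 mo-KC arrays and at 7.58, 7.62, 7.21, 7.22 and 7.09 on the day 30 mo-KC arrays. On the em-KC arrays it ran between 7.64 and 8.13 with a median of 7.93. No mo-KC array reached the lowest em-KC array, although the highest day 30 array, at 7.62, lay just under the lowest em-KC array, at 7.64. The groups averaged 7.11 ± 0.16, 7.34 ± 0.24 and 7.90 ± 0.17 in day 15 mo-KCs, day 30 mo-KCs and em-KCs (SD, n = 3, 5 and 11).

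The day 15 difference was -0.79 (SE 0.12, 95% confidence interval -1.04 to -0.54, limma, adjusted p = 9.84e-04). The day 30 difference was -0.56 (SE 0.10, interval -0.77 to -0.35, limma, adjusted p = 0.00527). Both values share the em-KC arrays. Cd22 was 1 of 5 Siglec genes called at each day, where 0.502% of all genes were called at day 15 and 0.787% at day 30. Groups did not overlap for 1.81% of all genes at day 15 and for 0.552% at day 30. Of all genes, 0.241% were called lower at both days and 0.256% had all 8 mo-KC arrays below all 11 em-KC arrays. In bulk samples of this kind, fewer cells that express a gene and less RNA per cell cannot be told apart.

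**Figure D1:**
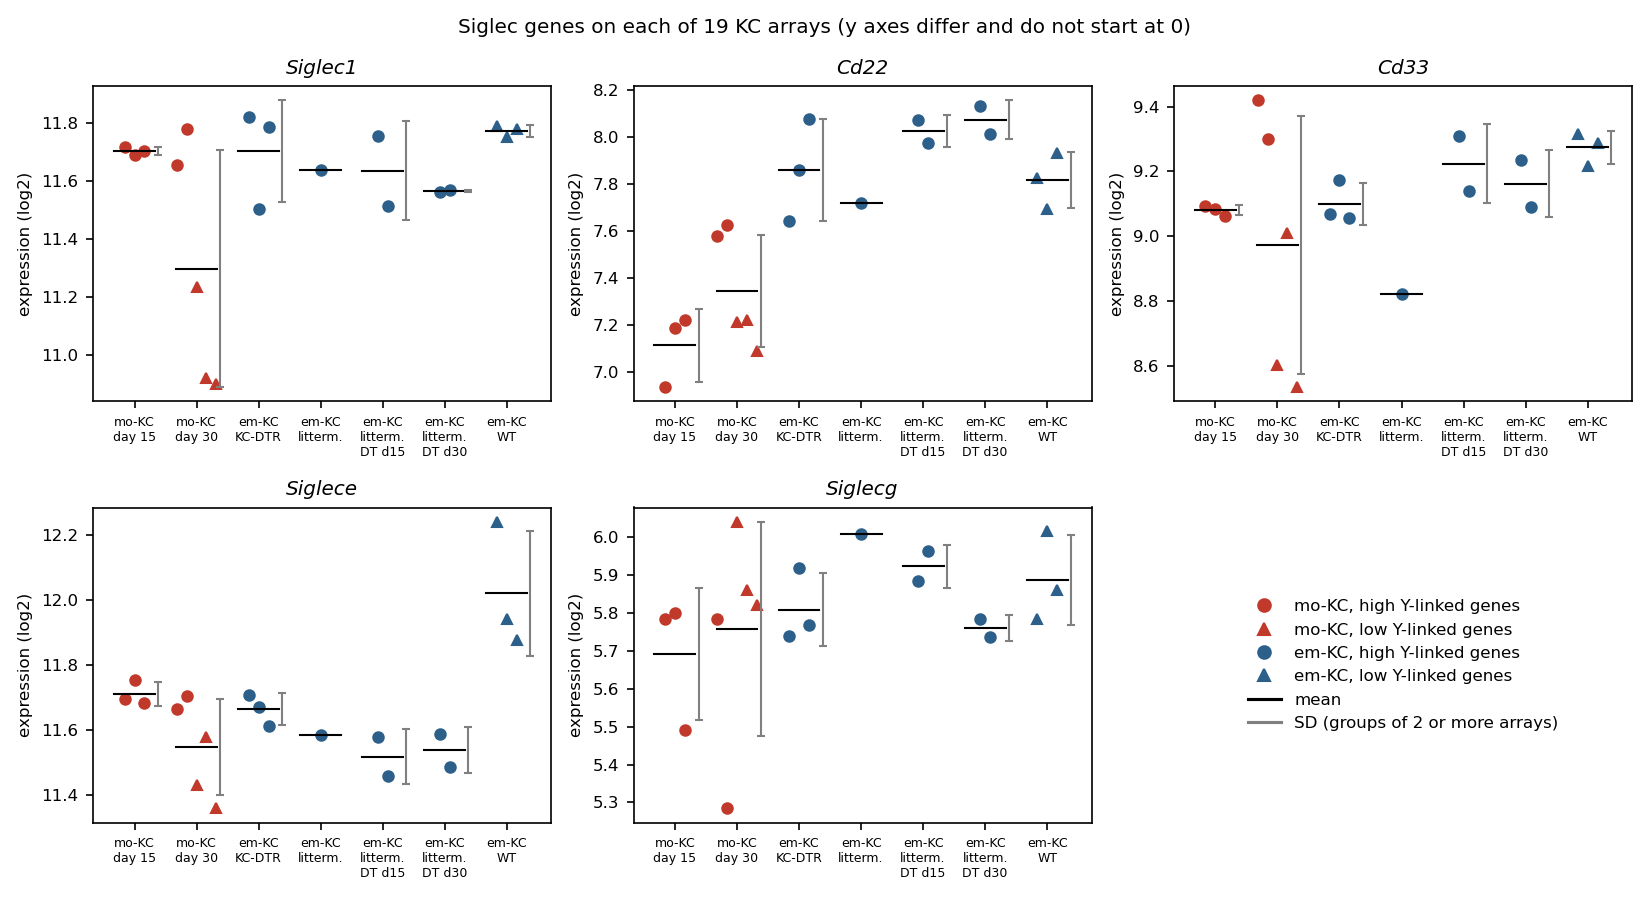
Expression (log2, y axis) of the 5 Siglec genes on each of the 19 arrays by group (x axis), mo-KCs in red and em-KCs in blue, with circles for arrays with high and triangles for arrays with low Y-linked genes, black lines for means and grey bars for the SD. Cd22 lies at or below 7.62 on all 8 mo-KC arrays and at or above 7.64 on all 11 em-KC arrays, and Siglec1 falls below 11.3 only on the 3 day 30 arrays drawn as triangles.

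The day 30 value of Cd22 was uneven between arrays. Replicates 1 and 2, which have high Y-linked genes, averaged 7.60 ± 0.03, and replicates 3 to 5, which have low Y-linked genes, averaged 7.17 ± 0.07. In the set with high Y-linked genes the day 30 difference was -0.34 (limma, adjusted p = 0.544, 0.326% of all genes called), and in the set with low Y-linked genes it was -0.64 (limma, adjusted p = 0.0278, 4.15% of all genes called). Fitted together with a term for the set, it was -0.485 (limma, adjusted p = 0.00591). The day 15 difference, taken in the high set alone, was -0.82 (limma, adjusted p = 5.09e-04, 1.16% of all genes called). Against only untreated KC-DTR em-KCs (3 arrays), which share the genotype of the mo-KCs, Cd22 was -0.75 at day 15 (limma, adjusted p = 0.0955) and -0.52 at day 30 (limma, adjusted p = 0.275), so that the sizes stayed close and the calls did not hold with 3 em-KC arrays.

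Since Cd22 is a B cell gene, B cell markers were read on the same arrays. None of the 11 measured markers passed the test at either day. Their mean level was between 6.15 and 6.55 on day 15 mo-KC arrays, 6.09 and 6.43 on day 30 mo-KC arrays and 6.16 and 6.90 on em-KC arrays, so that the 3 ranges overlapped. Of the 11, 8 had a negative difference at day 15 and 9 at day 30, with medians of -0.14 and -0.22 beside -0.01 and -0.02 over all genes. Cd79a, a part of the B cell receptor, was 6.50 ± 0.74 in day 15 mo-KCs, 6.37 ± 0.27 in day 30 mo-KCs and 6.98 ± 0.47 in em-KCs, with differences of -0.48 and -0.61 (limma, adjusted p = 0.907 and 0.248). Ms4a1, which encodes CD20, differed by -0.52 and -0.42 (limma, adjusted p = 0.577 and 0.266) and was dim, with a mean over all arrays below the 95th percentile of olfactory receptor genes, as were 4 of the 11 markers. Pax5, the B lineage factor, differed by -0.23 and -0.34 (limma, adjusted p = 0.92 and 0.229), and Fcer2a, the B cell IgE receptor, by -0.24 and -0.72 (limma, adjusted p = 0.959 and 0.111). Cd79b, which pairs with Cd79a, differed by 0.15 and 0.10, in the other direction. The part of B cells in the Cd22 result was not tested.

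Hepatocyte genes also moved with origin, in the same direction as Cd22. All 14 markers had a negative difference at day 15 and 13 of 14 at day 30, with medians of -0.99 and -0.60 beside -0.01 and -0.02 over all genes, although only Trf, which encodes transferrin, was called, at day 30. Their mean level was between 7.59 and 7.94 on day 15 mo-KC arrays and between 7.45 and 8.92 on day 30 mo-KC arrays. On em-KC arrays it was between 7.86 and 9.91, the 3 WT arrays being the highest. It averaged 7.72 in day 15 and 8.13 in day 30 mo-KCs, against 8.20 in em-KCs of the KC-DTR colony and 9.86 in WT em-KCs. The day 30 arrays with low Y-linked genes averaged 8.58, above the colony em-KCs. The negative differences thus rest in part on the WT arrays. Between em-KCs of the KC-DTR colony and of WT mice, where 13 of these 14 markers were called lower, Cd22 differed by 0.10 (limma, adjusted p = 0.613), and by -0.33 with a term for the array set (limma, adjusted p = 0.32). That term came from the day 30 mo-KCs alone, the only group with arrays in both sets. The part of hepatocyte RNA in the Cd22 result was not tested beyond these values.

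**Figure D2:**
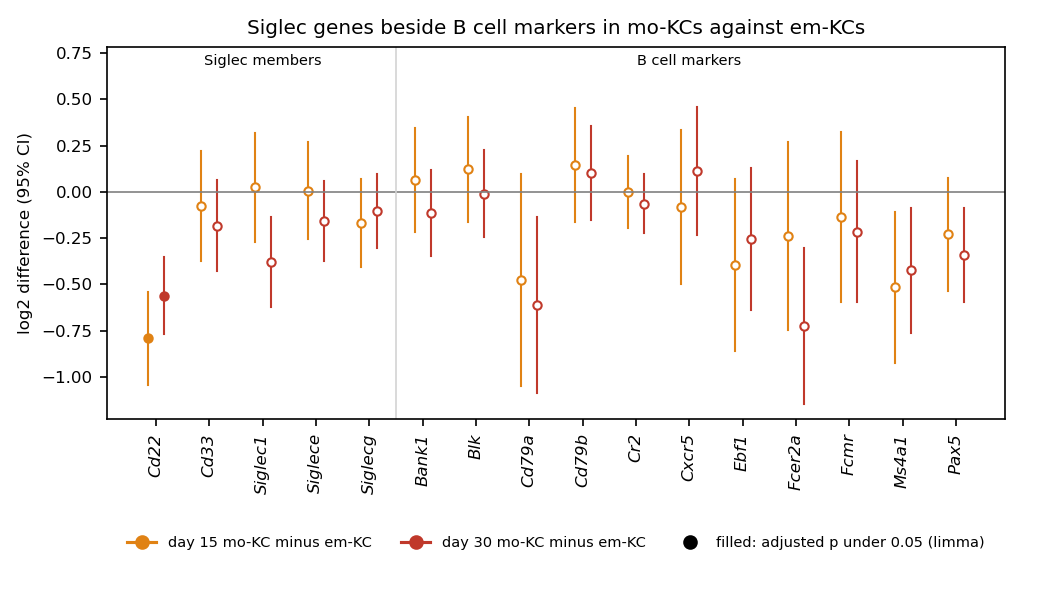
Log2 differences (y axis, with 95% confidence intervals) of the 5 Siglec genes and 11 B cell markers (x axis) in day 15 mo-KCs (orange) and day 30 mo-KCs (red) against em-KCs, with filled points for an adjusted p under 0.05 by limma. Cd22 is the only filled gene, at -0.79 and -0.56, and Cd79a, Fcer2a and Ms4a1 have open points below 0 on both days.

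Siglec1, the adhesion Siglec of mφs, was level between day 15 mo-KCs and em-KCs and uneven at day 30. It stood at 11.72, 11.69 and 11.70 on the day 15 mo-KC arrays and at 11.66, 11.78, 11.24, 10.92 and 10.90 on the day 30 mo-KC arrays. On em-KC arrays it ran between 11.50 and 11.82 with a median of 11.75. Day 30 replicates 1 and 2 lay inside the em-KC range and replicates 3 to 5 lay below every other array of the series.

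The day 15 difference of Siglec1 was 0.02 (SE 0.14, interval -0.27 to 0.32, limma, adjusted p = 0.992), and that at day 30 was -0.38 (SE 0.12, interval -0.62 to -0.14, limma, adjusted p = 0.147). The day 30 value depended on the array set: it was 0.07 in the high set (limma, adjusted p = 0.957) and -0.75 in the low set (limma, adjusted p = 0.0216). Without replicate 1 the pooled difference was -0.47 (limma, adjusted p = 0.0493) and without replicate 2 it was -0.50 (limma, adjusted p = 0.0224), so that leaving out either of these 2 arrays turned the pooled result into a call. The share of all genes called also rose, from 0.787% to 1.53% without replicate 1 and 1.58% without replicate 2. Without replicates 3 to 5 the pooled difference of Siglec1 was 0.038, where 0.176% of all genes were called. The difference between the sets passed the threshold for Siglec1, at -0.83 (SE 0.15, limma, adjusted p = 0.00308). That test was chosen after seeing the data and called 4.72% of all genes. Csf1r, the receptor for the mφ growth factor, was picked as 1 of the 3 genes most like Siglec1 over these same arrays. It stood at 12.15, 12.15 and 11.95 on replicates 3 to 5 against 12.47 and 12.575 on replicates 1 and 2, and 12.38 to 12.62 on em-KC arrays. Because it was picked by its likeness to Siglec1, its lower values on replicates 3 to 5 are not a separate result. The part of the array set in the Siglec1 result was not tested beyond these values.

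Siglece, the inhibitory Siglec of myeloid cells, did not pass the test with origin. It was called between sources of em-KCs, as were 16.5% of all genes. It stood at 11.70, 11.75 and 11.68 on day 15 mo-KC arrays and at 11.66, 11.71, 11.43, 11.58 and 11.36 on day 30 mo-KC arrays. Its em-KC arrays ran between 11.46 and 12.24 with a median of 11.61. The difference from em-KCs was 0.0069 at day 15 (SE 0.13, interval -0.26 to 0.27, limma, adjusted p = 0.998) and -0.16 at day 30 (SE 0.10, interval -0.37 to 0.06, limma, adjusted p = 0.565). Within the array sets the day 30 value was 0.099 (high, limma, adjusted p = 0.914) and -0.56 (low, limma, adjusted p = 0.0622). In the test chosen after seeing the data, the difference between the sets passed the threshold, at -0.66 (SE 0.14, limma, adjusted p = 0.00835).

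The 3 highest arrays of Siglece were the WT em-KCs. The KC-DTR colony gave 8 em-KC arrays, which ran between 11.46 and 11.71 with a median of 11.59, against 12.24, 11.94 and 11.88 on the 3 WT em-KC arrays, with no overlap, as for 17.7% of all genes. The difference, taken between the mean of the 4 colony group means and the WT mean, was -0.45 (SE 0.10, interval -0.65 to -0.24, limma, adjusted p = 0.00496). Siglece was the only gene of the 5 called in this comparison, in which 16.5% of all genes were called. The source of the mice, the array set and the level of hepatocyte genes moved together here: the mean over 14 hepatocyte markers was between 7.86 and 8.66 on colony arrays and between 9.80 and 9.91 on WT arrays, 13 of the 14 were called lower in the colony, and Alb, the albumin gene, was 10.64 ± 0.49 in the colony against 12.50 ± 0.08 in WT (SD, n = 8 and 3). These cannot be told apart. The day 30 mo-KC arrays with low Y-linked genes had hepatocyte means between 8.02 and 8.92 and Siglece at 11.43, 11.58 and 11.36, in or below the range of colony em-KCs.

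Cd33, a Siglec of the myeloid branch, was called in none of the 5 comparisons over all arrays. It stood at 9.09, 9.08 and 9.06 on day 15 mo-KC arrays, at 9.42, 9.30, 8.60, 9.01 and 8.53 on day 30 mo-KC arrays, and between 8.82 and 9.32 with a median of 9.17 on em-KC arrays. The day 30 arrays spanned more than the em-KC arrays on both sides, with replicate 1 highest and replicates 3 and 5 lowest in the series. The difference from em-KCs was -0.08 at day 15 (SE 0.14, interval -0.37 to 0.22, limma, adjusted p = 0.977) and -0.18 at day 30 (SE 0.12, interval -0.43 to 0.06, limma, adjusted p = 0.552). Within the array sets the day 30 value was 0.25 (high, limma, adjusted p = 0.634) and -0.56 (low, limma, adjusted p = 0.0765). In the test chosen after seeing the data, the difference between the sets passed the threshold, at -0.81 (SE 0.17, limma, adjusted p = 0.00859). With a term for the set, Cd33 was also called lower in em-KCs of the colony than in those of WT mice, at -0.84 (limma, adjusted p = 0.00823), against -0.20 without it (limma, adjusted p = 0.397), in a fit that called 3.55% of all genes. Only the day 30 mo-KCs have arrays in both sets, so this term came from them alone. The value of -0.84 thus carries the gap among mo-KC replicates and is not a result within em-KCs.

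Siglecg, the B cell Siglec that neighbours Siglecf, had low values, and its arrays overlapped throughout. It stood at 5.78, 5.80 and 5.49 on day 15 mo-KC arrays, at 5.78, 5.28, 6.04, 5.86 and 5.82 on day 30 mo-KC arrays, and between 5.74 and 6.02 with a median of 5.86 on em-KC arrays. The differences were -0.17 at day 15 (SE 0.12, interval -0.41 to 0.07, limma, adjusted p = 0.928) and -0.10 at day 30 (SE 0.10, interval -0.30 to 0.10, limma, adjusted p = 0.703). Day 30 replicate 2 lay lowest and replicate 3 highest of all 19 arrays. At such a level, close to the 95th percentile of olfactory receptor genes at 5.47, an array can miss a difference in RNA.

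Another 4 genes of the family had a probeset of their own, and none was called in any of the 5 comparisons. Siglecf, whose protein was gated out during sorting and which marks eosinophils, ran between 6.57 and 6.80 on day 15 mo-KC arrays, 6.54 and 7.06 on day 30 mo-KC arrays and 6.47 and 6.88 on em-KC arrays. Siglech, a Siglec of plasmacytoid dendritic cells and microglia that signals through Dap12, averaged 5.51 ± 0.16, 5.41 ± 0.19 and 5.81 ± 0.24 in the same order, with differences of -0.30 (limma, adjusted p = 0.779) and -0.40 (limma, adjusted p = 0.119). Its level was close to the 95th percentile of olfactory receptor genes and below it in day 30 mo-KCs, so that the size of its difference is uncertain. Siglec15, an osteoclast Siglec, differed by -0.08 and 0.07, and Mag, the myelin Siglec beside Cd22, by 0.02 and 0.05. The values of Mag, between 5.21 and 6.51 over all 11 em-KC arrays, overlapped fully between groups, unlike those of its neighbour Cd22.

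**Figure D3:**
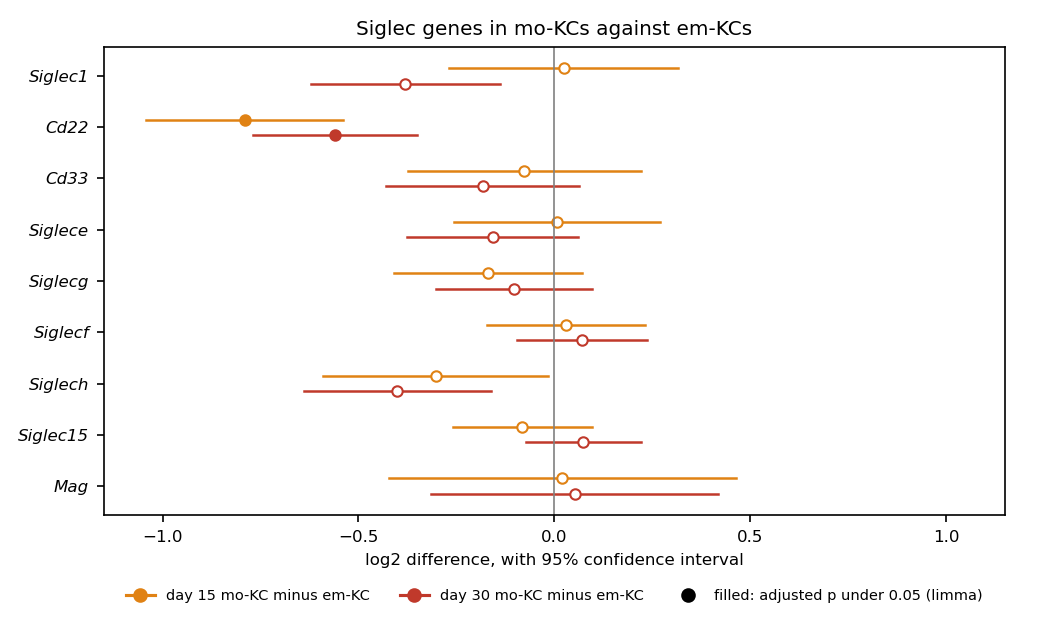
Log2 differences (x axis, with 95% confidence intervals) of the 9 measured Siglec genes in day 15 mo-KCs (orange) and day 30 mo-KCs (red) against em-KCs, with filled points for an adjusted p under 0.05 by limma. Cd22 is filled on both days, at -0.79 and -0.56, and the points of the other 8 genes are open.

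Between the 2 times after DT, none of the 5 genes passed the test, and neither did the 4 others, where 4 genes (0.0201%) were called in all. Cd22 was 0.23 higher at day 30 than at day 15 (SE 0.14, interval -0.05 to 0.51, limma, adjusted p = 0.92), and its day 30 and day 15 arrays overlapped, at 7.09 to 7.62 and 6.93 to 7.22. Siglec1 was -0.40 (SE 0.16, limma, adjusted p = 0.92), with replicate 2 of day 30 above, and the other 4 below, all day 15 arrays. In the high set alone, with 2 day 30 and 3 day 15 arrays, Cd22 was 0.49 higher at day 30 (SE 0.14, limma, adjusted p = 0.999). That difference did not pass the test, which called 0.0301% of all genes in this set.

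The knock-in itself was examined in untreated KC-DTR em-KCs against em-KCs of WT littermates, of which 4 of 5 had received DT. No gene was called (0% of 19938 by limma, with 1499 at an unadjusted p under 0.05 by the unmoderated test that the methods name). Siglece was the only gene of the 5 whose groups did not overlap, at 11.71, 11.67 and 11.61 in KC-DTR mice against 11.58, 11.58, 11.46, 11.59 and 11.49 in littermates, a difference of 0.12 (SE 0.10, interval -0.10 to 0.34), in a comparison in which 5.47% of all genes did not overlap. Cd22 was 7.64, 7.86 and 8.08 in KC-DTR mice and between 7.72 and 8.13 in littermates, which overlapped, with a difference of -0.08 (SE 0.14, interval -0.36 to 0.21). Siglec1, Cd33 and Siglecg differed by 0.09, 0.03 and -0.09.

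Of the enzymes that make Siglec ligands, 2 sialyltransferases were called lower in mo-KCs at day 30, and 1 of these was also called at day 15. St6gal1 adds sialic acid in the α2-6 linkage that Cd22 binds. It was 8.32, 8.69 and 8.56 on day 15 mo-KC arrays and 8.78, 8.67, 8.32, 8.18 and 8.51 on day 30 mo-KC arrays, against 8.79 to 9.27 with a median of 9.01 on em-KC arrays. The groups did not overlap, although the highest day 30 array lay just below the lowest em-KC array. The difference was -0.52 at day 30 (SE 0.10, limma, adjusted p = 0.00659) and -0.49 at day 15 (SE 0.12, limma, adjusted p = 0.0612), where it missed the threshold. The 2 sizes were thus alike, and the day 15 difference passed the threshold in 8 of 32 alternatives.

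St6galnac2 adds sialic acid to mucin-type O-glycans, and its difference was the larger of the 2. It was 6.76, 6.51 and 6.64 on day 15 mo-KC arrays and 7.10, 6.59, 6.33, 7.05 and 6.48 on day 30 mo-KC arrays, against 7.49 to 8.43 with a median of 7.70 on em-KC arrays. All 8 mo-KC arrays lay below all em-KC arrays. The differences were -1.14 at day 15 (SE 0.16, limma, adjusted p = 5.12e-04) and -1.06 at day 30 (SE 0.14, limma, adjusted p = 1.31e-04). This call held in every alternative that was run at both days, while that of St6gal1 at day 30 was lost in 5 of them. It did not hold within either array set (-0.31, limma, adjusted p = 0.527, in the high set and -0.61, limma, adjusted p = 0.0506, in the low set) or against the 3 untreated KC-DTR em-KC arrays (-0.55, limma, adjusted p = 0.193). It did not hold with the replicate number as a block (-0.43, limma, adjusted p = 0.278) or without day 30 replicates 3 to 5 (-0.29, limma, adjusted p = 0.844). The block leaves day 30 replicates 4 and 5 out of the comparison, since no other group has these numbers.

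The rest of the sialic acid pathway did not pass the test. Of 20 sialyltransferase genes, 18 were not called at day 30 and 19 at day 15, with medians of 0.0092 and -0.08. The sign of these medians differs from that of the 2 called genes at day 30. St8sia4, a polysialyltransferase, differed by 0.92 at day 15 with no overlap (SE 0.23, limma, adjusted p = 0.0983) and by 0.41 at day 30 (limma, adjusted p = 0.375). None of the 10 genes of sialic acid synthesis, activation and transport was called, and among them Cmah, which converts the common sialic acid to its glycolyl form, preferred by mouse Cd22, differed by -0.42 at day 15 (SE 0.18, limma, adjusted p = 0.741) and -0.55 at day 30 (SE 0.15, limma, adjusted p = 0.0987). None of the 5 genes of sialidases and their partner Ctsa was called at either day. None of 7 genes for glycoproteins and lectins on the ligand side was called, among them Ptprc, which encodes CD45, a carrier of Cd22 ligands, at 0.16 and -0.09.

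**Figure D4:**
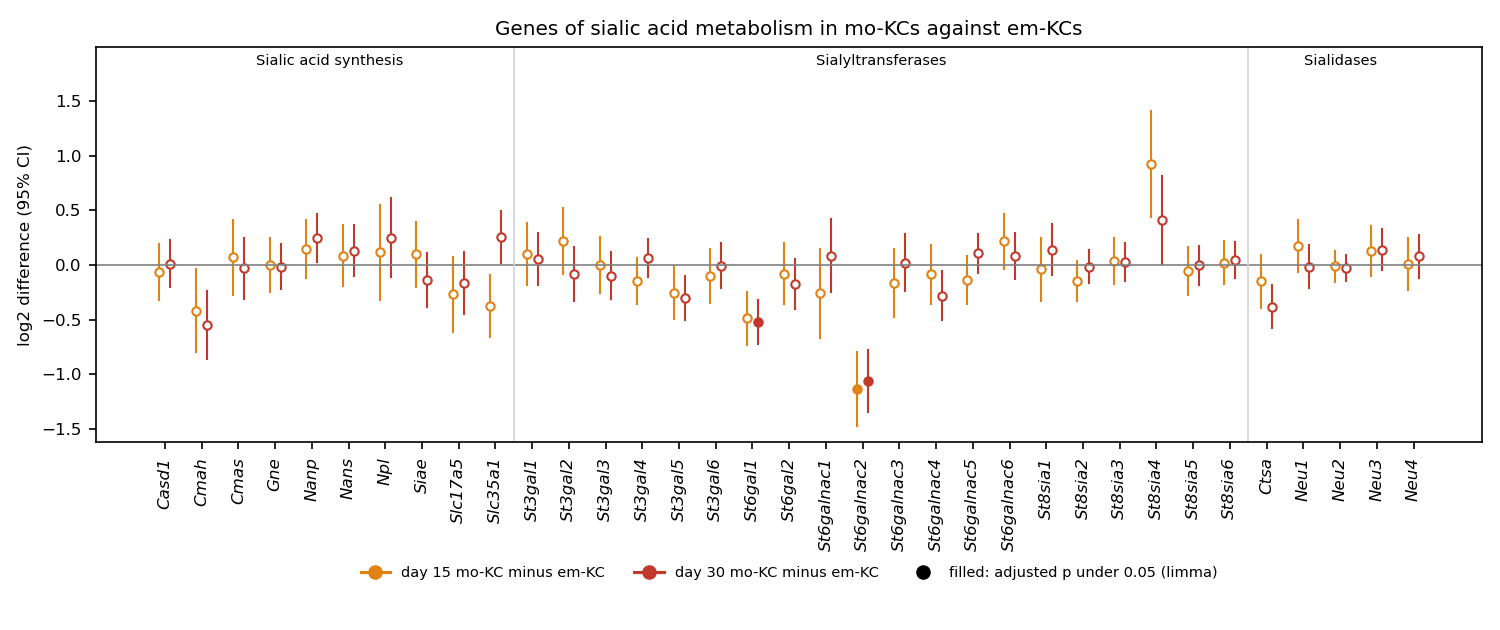
Log2 differences (y axis, with 95% confidence intervals) of the genes of sialic acid synthesis, sialyltransferases and sialidases (x axis) in day 15 mo-KCs (orange) and day 30 mo-KCs (red) against em-KCs, with filled points for an adjusted p under 0.05 by limma. St6galnac2 is filled at -1.14 and -1.06 and St6gal1 at -0.52 on day 30, and the open points of most other genes lie near 0.

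Downstream of the receptors, none of 11 measured signalling genes was called at either day. Ptpn6 and Ptpn11, which encode Shp1 and Shp2, differed by 0.04 and 0.19 at day 15 and by -0.13 and 0.10 at day 30. Tyrobp, which encodes Dap12, differed by -0.10 and 0.0002, and Inpp5d, which encodes the lipid phosphatase Ship1, by 0.11 and -0.15. Siglec1 is an interferon-stimulated gene in mφs, and none of 23 other measured interferon-stimulated genes was called. Of the 23, 22 had a positive difference at day 15 and 16 at day 30, beside 9151 and 8972 of all 19938 genes. Their medians were 0.14 at day 15 and 0.10 at day 30, beside -0.01 and -0.02 over all genes. The differences of Siglec1 itself were 0.02 and -0.38.

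The genes most like each Siglec over the 19 arrays were found by Pearson's r, given here as a description because arrays of a group and of a set share what sets them apart. For Cd22 they were C6, a complement gene of KCs (0.908), St6gal1 (0.901) and Kcnj16, a potassium channel gene (0.894). Over the 13 arrays with high Y-linked genes the same 3 gave 0.903, 0.912 and 0.918, and over the 11 em-KC arrays alone 0.127, 0.686 and 0.465. Thus the likeness to C6 lay between the origins, and St6gal1 kept part of its likeness among em-KCs.

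For Siglec1 the 3 genes were Rpn2 (0.937), Csf1r (0.924) and Fam120a (0.92), and without day 30 replicates 3 to 5 their r was 0.506, 0.532 and 0.577. For Siglece they were Fcer1g, an Fc receptor subunit (0.912), Pigt (0.909) and Lamp1, a lysosomal membrane protein gene (0.894), with 0.481, 0.634 and 0.0776 on the arrays with high Y-linked genes, 0.895, 0.896 and 0.883 without day 30 replicates 3 to 5 and 0.97, 0.934 and 0.96 on the 11 em-KC arrays, which include the 3 WT arrays. For Cd33 they were Ifnar1, an interferon receptor gene (0.881), Slc29a3 (0.855) and Tgfb1 (0.854), with 0.719, 0.551 and 0.752 on the 11 em-KC arrays. For Siglecg they were Ryr3 (0.833), Lhx8 (0.806) and Wnt10b (0.797), with 0.665, 0.439 and 0.701 on the 11 em-KC arrays. These last 3 genes averaged 4.87, 5.61 and 5.48 in em-KCs, below or close to the olfactory 95th percentile of 5.47. Siglecg is also close to that level, so its r values may be those of background signal, which was not tested. Among the 5 Siglec genes, r was 0.669 for Siglec1 and Cd33, 0.586 for Cd33 and Siglece and 0.582 for Siglec1 and Siglece, and Siglecg ran between -0.3 and 0.102 against the other 4.

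**Figure D5:**
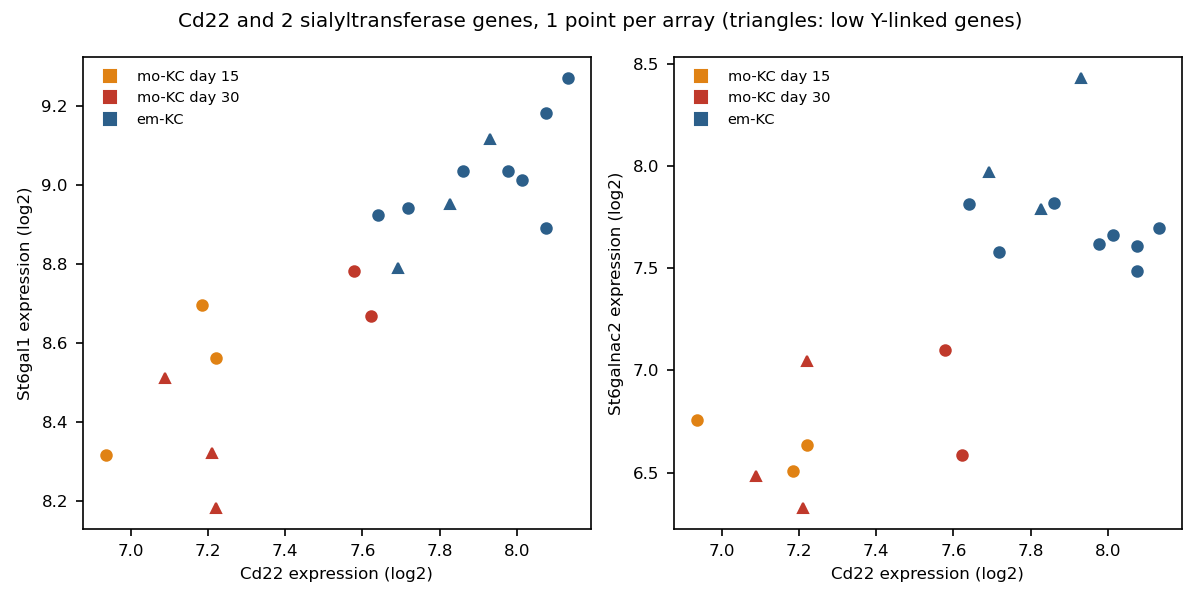
Expression (log2) of Cd22 (x axis) against St6gal1 (left, y axis) and St6galnac2 (right, y axis), with 1 point for each array, day 15 mo-KCs in orange, day 30 mo-KCs in red, em-KCs in blue and triangles for arrays with low Y-linked genes. In both plots the 8 mo-KC arrays lie to the left of and below the 11 em-KC arrays, with St6gal1 between 8.18 and 8.78 in mo-KCs and between 8.79 and 9.27 in em-KCs.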

How the data were processed

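RNA of FACS-purified KCs was hybridised to Affymetrix Mouse Gene ST arrays, 1 array per sample and 19 in all. The values deposited by the authors are log2 expression values, 1 per probeset, from RMA (Robust Multi-array Average), which corrects background and quantile normalizes between arrays. Its version is not given in the sources used. Quantile normalization hides any shift of all genes, and array medians lay between 5.99 and 6.08. Of 35556 probesets, 21789 had 1 gene symbol, and the rest were left out. The probeset with the highest mean stood for a gene, as in the Methods, which gave 19938 genes.

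Groups were fitted with limma 3.58.1 (lmFit and eBayes) in R 4.3.3, with 3 groups for the origin of KCs and 7 groups for comparisons among em-KCs. Tests were two-sided with Benjamini-Hochberg adjustment over the 19938 genes, and a gene was called at an adjusted p under 0.05. Precision is limited by how many arrays each group has. The fits were first tested on simulated data. The replicates are called biological in the titles. Alternatives changed the em-KC arrays used, the probeset, centring, filter, variance model, test, array set, replicate number and left-out arrays. The genes named are the 5 Siglecs, the other measured Siglecs, called genes of the lists, markers of other cell types and the 3 genes most like each Siglec. The members and lists were chosen with earlier results of these data known.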

Additional observations from a re-analysis of the deposited data

Results flagged for a closer look

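The day 30 difference from em-KCs was not the same in the arrays with low and with high Y-linked genes for 3 of the 5 Siglec genes, by a limma test of the difference between the sets that was chosen after seeing the data. The low set's difference minus the high set's was -0.83 for Siglec1 (SE 0.15, limma, adjusted p = 0.00308), -0.81 for Cd33 (SE 0.17, limma, adjusted p = 0.00859) and -0.66 for Siglece (SE 0.14, limma, adjusted p = 0.00835). It was -0.31 for Cd22 (limma, adjusted p = 0.352) and 0.34 for Siglecg (limma, adjusted p = 0.305), neither past the threshold. Of all genes, 4.72% were called in this test. The low set compares KC-DTR mo-KCs with em-KCs of WT mice and the high set compares them with em-KCs of the KC-DTR colony. Siglec1 averaged 11.02 ± 0.19 in the low and 11.72 ± 0.09 in the high set of day 30 mo-KCs (SD, n = 3 and 2), all from KC-DTR mice, and 11.64 ± 0.13 in colony and 11.77 ± 0.02 in WT em-KCs (SD, n = 8 and 3). Cd33 averaged 8.72 ± 0.26 in the low and 9.36 ± 0.08 in the high set of mo-KCs, and 9.11 ± 0.15 in colony and 9.27 ± 0.05 in WT em-KCs. For these 2 genes the larger part of the difference thus lay among the mo-KC replicates. Siglece averaged 11.46 ± 0.11 in the low and 11.69 ± 0.03 in the high set of mo-KCs, and 11.59 ± 0.08 in colony and 12.02 ± 0.19 in WT em-KCs, so that the larger part lay between the em-KCs, where source and set cannot be told apart.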

How the results depend on the processing

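The count of Siglec genes called at day 30 was 1 and became 0 against the 3 untreated KC-DTR em-KC arrays, 0 with the replicate block, 0 within the arrays with high and 2 within those with low Y-linked genes, 2 by the t-test of the methods at an unadjusted p (which called 11.9% of all genes), 0 without day 30 replicates 3 to 5 together (chosen after seeing the data), and between 1 and 2 when single arrays were left out. Without replicates 3 to 5 the day 30 difference of Cd22 was -0.30 (limma, adjusted p = 0.864), and under the replicate block it was -0.44 (limma, adjusted p = 0.299). Replicate numbers 4 and 5 occur only in day 30 mo-KCs, so the block takes those arrays out of the comparison. At day 15 the count was 1, and 0 against the 3 KC-DTR em-KC arrays. It was 0 between KC-DTR em-KCs and littermates, and 1 by the unadjusted t-test (7.52% of all genes). It was 1 between the colony and WT, and 3 when the set entered the fit as a block (Siglece, Siglec1 and Cd33, with 3.55% of all genes called). The set's term in that fit came from the day 30 mo-KC arrays alone, so these 3 calls are not a result within em-KCs. No other setting moved a count.

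Cd22 kept its sign at both days in every setting, between -0.84 and -0.70 (day 15) and between -0.63 and -0.50 (day 30) with single arrays left out. Sign changes were confined to differences that had not passed the test. At day 30 against em-KCs they were, within the high set, Siglec1 0.074, Cd33 0.25 and Siglece 0.099, within the low set Siglecg 0.019, without replicates 3 to 5 Siglec1 0.038 and Cd33 0.20, and, leaving out single arrays, Siglecg from -0.17 to 0.016. At day 15 they were Siglec1 at -0.020 with the set as a block, and Siglece from -0.018 to 0.061 with single arrays left out. Between day 30 and day 15 they were Cd33 at 0.027 under the replicate block, Siglecg at -0.028 with the set as a block, Siglec1 0.014, Cd33 0.28 and Siglecg -0.16 within the high set and equally without replicates 3 to 5, and, with single arrays left out, Siglecg from -0.035 to 0.18 and Cd33 from -0.22 to 0.0032. Between KC-DTR em-KCs and littermates they were Cd33 at -0.019 by the methods' test, which weights arrays rather than group means, Cd22 from -0.19 to 0.029 and Cd33 from -0.094 to 0.059 with single arrays left out. Between the colony and WT they were Siglecg at 0.019 after centring, Cd22 -0.33 and Siglecg 0.36 with the set as a block, and Siglecg from -0.064 to 0.0525 with single arrays left out. The causes were not tested.

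Samples with the same replicate number in different groups did not deviate together (mean r 0.0183 over 36 pairs, against -0.00684 over 96 pairs of different numbers), so the numbers were not taken as pairs. The number of genes called at day 30 was 157, and 49 under the replicate block, 514 with the set as a block and 827 within the low set.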
